A study of Mus musculus with 4 samples.

Results

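Of the 32288 features counted in E14.5 mouse hindlimb cells, 10 genes of bone morphogenetic protein (BMP) signalling are described here. They are 6 ligands (*Bmp2*, *Bmp4*, *Bmp6*, *Bmp7*, *Gdf5* and *Gdf10*), the antagonist *Nog* and 3 receptors (*Bmpr1a*, *Bmpr1b* and *Bmpr2*). The genes were taken by symbol from a list of names. All 10 were found and all had UMIs.

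BMPs and growth and differentiation factors (GDFs) are secreted dimers of the TGF-beta family. They bind a complex of type I receptors, such as BMPR1A and BMPR1B, and type II receptors, such as BMPR2, which phosphorylate SMAD1, SMAD5 and SMAD8 and so turn on targets such as the *Id* genes. Noggin, the product of *Nog*, binds several of the ligands outside the cell and keeps them from their receptors. In the limb bud this pathway is known for its part in cartilage condensation, chondrocyte maturation and joint formation.

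Single cells were measured in 4 libraries of dissociated hindlimb (femur and tibia), sorted by tdTomato into tdT+ and tdT- cells in each of 2 collections. All embryos carried *Gli1-CreER*, a tamoxifen-dependent recombinase expressed where *Gli1* is active, the R26 LSL-tdTomato reporter, which recombined cells and their progeny keep on, and the *Tigre TRE-p21* allele. The *Pan-Cart-p21* embryos (p21 cells below) also carried *Col2a1-rtTA*, which with doxycycline drives *p21*, a cell-cycle inhibitor, in cartilage, and the control embryos lacked it. Doxycycline was given from E12.5 (1 mg/ml in the drinking water, and in the food) and tamoxifen once at E13.5 (120 µg/g by gavage), and limbs were taken at E14.5, so control embryos received both drugs too. In each library the p21 embryos were of 1 sex and the controls of the opposite sex, and the condition of a cell was read from its sex-linked transcripts with the key in the study's methods. In collection 1 the p21 cells were male and in collection 2 female, so sex and condition cannot be told apart within a collection but are balanced over both. Summing each library's p21 and control cells gave 8 summed profiles (pseudobulks), but tdT+ and tdT- cells of a pool came from the same embryos, so these stand for 2 embryo pools per condition. The results text describes pooled embryos, whereas the methods list 1 experimental female, so the p21 pool of collection 2 may be 1 animal. p-values measure the spread between these pseudobulks.

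The files held 18955 barcodes, of which 6873 passed a filter on depth and 2767 were singlets with a sex call. The loss was uneven. In collection 2, 2747 of 3912 tdT- and 455 of 1483 tdT+ barcodes past the filter had no sex call. In collection 1 these were 349 of 772 and 178 of 706. Kept p21 and control cells numbered 98 and 260 in tdT- and 233 and 232 in tdT+ collection 1. In collection 2 they numbered 784 and 214 in tdT- and 664 and 282 in tdT+ cells. Pseudobulks of all cells held 2293497 to 19432720 UMIs, those of chondrocytes 805063 to 7694967 and those of other cells 1488434 to 10952887. The label checks came from transgene features. The paper states that the p21 and the tdTomato alleles both carry WPRE, and that reads of either map mostly to it. In chondrocytes WPRE, a sequence carried by transgenes, was at 1087 and 1341 CPM (a gene's UMIs scaled to the total UMIs of the same cells) in the tdT- p21 cells against 114 and 68.85 in the tdT- control cells, and at 1267 and 1813 against 690 and 457 in tdT+ cells. tdTomato reads were at 17.1 to 22.3 CPM in the tdT+ and 0.71 to 3.73 CPM in the tdT- chondrocyte pseudobulks. *Cdkn1a*, which encodes p21, overlapped between p21 (56.7 to 68.3 CPM) and control chondrocytes (23.1 to 92.0 CPM). Of the kept barcodes, 0 or 1 was shared by any pair of libraries.

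The genes lie on GRCm38 as follows, by GENCODE M21, and all are protein coding. *Bmp2* (ENSMUSG00000027358) is at chr2:133552159-133562885 on the plus strand, *Bmp4* (ENSMUSG00000021835) at chr14:46383520-46390669 on the minus strand and *Bmp6* (ENSMUSG00000039004) at chr13:38345107-38500302 on the plus strand. *Bmp7* (ENSMUSG00000008999) is at chr2:172868012-172940321 and *Gdf5* (ENSMUSG00000038259) at chr2:155941023-155945367, both on the minus strand. *Gdf10* (ENSMUSG00000021943) is at chr14:33923587-33937983 on the plus strand and *Nog* (ENSMUSG00000048616) at chr11:89300638-89302332 on the minus strand. *Bmpr1a* (ENSMUSG00000021796) is at chr14:34410734-34503341 and *Bmpr1b* (ENSMUSG00000052430) at chr3:141837136-142169425, both on the minus strand, and *Bmpr2* (ENSMUSG00000067336) is at chr1:59763400-59879014 on the plus strand.

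Clustering without the 10 genes and 51 related pathway genes gave 22 clusters, of which 17 are described and 5, with at least 90% of their cells from 1 library, are not. They were named only where markers allowed and are otherwise called by number. Clusters 2 (chondrocyte-like), 5 (resting chondrocyte-like, led by *Hes5* and *Cytl1* together with the heat-shock genes *Hspa1a* and *Hspa1b*), 6 and 10 (proliferative chondrocyte-like) and 14 (prehypertrophic chondrocyte-like, led by *Col10a1*, *Spp1*, *Panx3* and *Ihh*) made up 915 chondrocytes. *Col10a1* and *Spp1* were listed as hypertrophic markers. The cluster they led was also named prehypertrophic at a clustering resolution of 0.5 (97 cells) but hypertrophic at 1.5 (81 cells), so its stage is not settled. The 1691 non-chondrocyte cells held fibroblast-like (4), tenocyte-like (13), muscle-like (16), osteoprogenitor-like (17) and immune-like (19) clusters. Cluster 7 carried raised *Prg4*, *Wnt9a*, *Wnt4* and *Sfrp2*, markers of the joint interzone, but *Pkhd1*, *Krt17* and *Pax9* led it, so it keeps its number. Cluster 12 was led by *Isl1*, cluster 1 by *Epha3*, *Alpl* and *Runx2*, cluster 3 by *Itgbl1*, *Lef1* and *Bmp5*, cluster 8 by *Galntl6*, cluster 9 by *Macc1* and *Tbx18*, and cluster 11 by globin *Hba-a1*. Levels below are CPM of the summed UMIs of a cluster, with the range over libraries that had at least 10 of its cells. They compare 1 gene between clusters, are descriptions without a test, and are not comparable between genes.

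**Figure D1:**
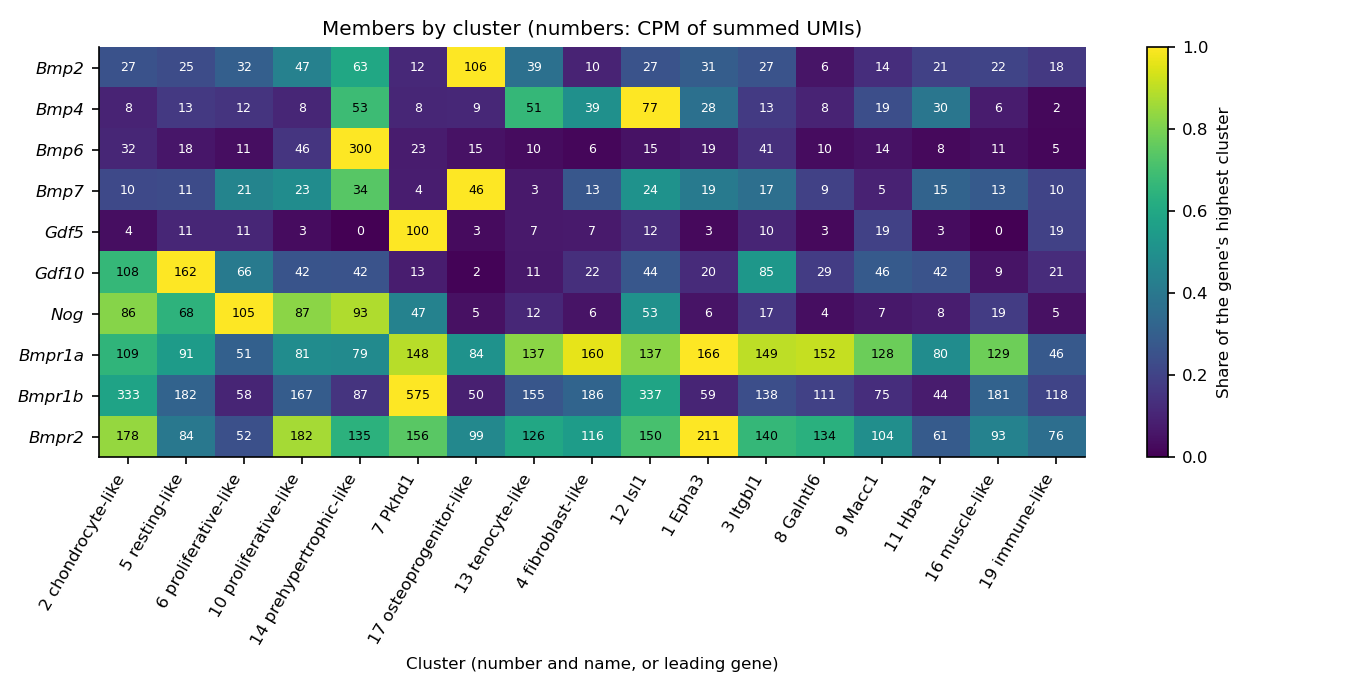
Level of each of the 10 genes (rows) in each of 17 clusters (columns). The number in a cell is CPM of the cluster's summed UMIs, and the colour is that level as a share of the gene's highest cluster. *Bmp6* stands out in cluster 14 (300 CPM) and *Gdf5* in cluster 7 (99.6 CPM), whereas *Bmpr1a* and *Bmpr2* are spread over all clusters.

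The ligands differed in where they were highest. *Bmp6* and *Gdf5* each had 1 cluster far above the rest, whereas *Bmp2*, *Bmp4*, *Bmp7* and *Gdf10* fell off in small steps. The highest cluster was 20.3 times the median cluster for *Bmp6* and 14.9 times for *Gdf5*, against 5.97 for *Bmp4*, 4 for *Bmp2*, 3.89 for *Gdf10* and 3.51 for *Bmp7*.

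*Bmp6*, which is known from maturing cartilage, was highest in the prehypertrophic chondrocyte-like cluster 14, at 300 CPM. Its libraries there ran from 151.7 to 435.9 CPM in the 3 libraries with at least 10 cells, above every library of the next cluster, 10 (45.8 CPM, 21.1 to 78.1). Within each library cluster 14 stood far above the other chondrocytes, at 436 against 50.6 CPM in tdT- collection 1, 278 against 22.8 in tdT- collection 2 and 152 against 22.1 in tdT+ collection 2. In tdT+ collection 1 only 2 cells fell in cluster 14, and they held 149 *Bmp6* UMIs. The endothelial genes *Cdh5* and *Plvap* were also among the leading genes of cluster 14, and 15 of its 97 cells carried endothelial markers. *Bmp6* was at 122 CPM in those 15 cells and at 328 CPM in the other 82. Cluster 14 supplied 37.7% of all *Bmp6* UMIs from 4.08% of all UMIs.

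*Gdf5*, a ligand of the forming joint that signals mainly through BMPR1B, was highest in cluster 7, at 99.6 CPM. Its 4 libraries there ran from 42.7 to 161 CPM, above all libraries of the next cluster, 9 (19.4 CPM, 12.7 to 31.8). Cluster 7 supplied 44.5% of the *Gdf5* UMIs from 5.03% of all UMIs. Immune-like cells, which are not a known source, had 19.1 CPM (12 UMIs in 29 cells, 26 of them p21 cells of tdT- collection 2). Levels at or under this, and that of cluster 9, may hold background, and its size was not measured. In clusters 14 and 16, 0 *Gdf5* UMIs were counted among 2884419 and 1510701 UMIs, which allows up to 1.04 and 1.99 CPM (3 counts, counting error only). A level of 19.1 CPM is therefore not a background shared by all clusters.

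*Bmp2*, a ligand of chondrocyte and osteoblast differentiation, was highest in osteoprogenitor-like cells (106 CPM, 102 to 134 in 2 libraries). Prehypertrophic chondrocyte-like cells followed at 63.1 CPM (18.6 to 119), and the ranges overlapped. Cluster 10 was at 46.5, tenocyte-like cells at 39.3 and cluster 6 at 32.0 CPM, and every step among the 12 highest clusters overlapped. Cluster 8 was lowest at 6.14 CPM, under the 17.5 CPM of immune-like cells.

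*Bmp7* followed a like order, with osteoprogenitor-like cells at 46.4 CPM (38.2 to 51.2), cluster 14 at 34.3 (24.4 to 38.7) and cluster 12 at 23.7 CPM (22.9 to 26.4). Ranges of these neighbours overlapped. The tenocyte-like cluster was lowest at 3.19 CPM (10 UMIs), below the 9.56 CPM of immune-like cells.

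*Bmp4*, a ligand of early limb mesenchyme and of perichondrium, was highest in the *Isl1* cluster 12 (77.3 CPM), where the 3 libraries (67.5 to 88.0) lay above those of cluster 14 (53.0 CPM, 38.7 to 56.9). Tenocyte-like cells were at 51.4 CPM and fibroblast-like cells at 38.7 CPM (17.7 to 68.2). Among chondrocyte clusters other than 14 it was at 7.67 to 12.95 CPM, against 1.59 CPM in immune-like and 5.96 CPM in muscle-like cells. It was the ligand with the largest share outside chondrocytes after *Gdf5*, since non-chondrocyte cells held 75.1% of its UMIs and 62.2% of all UMIs.

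*Gdf10*, a BMP3-like ligand, was highest in resting chondrocyte-like cells at 162 CPM (114 to 226). Cluster 2 came next at 108 CPM (83.7 to 118), overlapping it, and then cluster 3, a non-chondrocyte cluster, at 85.4 CPM (75.4 to 97.4). Proliferative clusters had less, with 66.3 CPM in cluster 6 and 42.3 CPM in cluster 10, and cluster 14 had 41.6 CPM. Only 2 UMIs were counted in osteoprogenitor-like cells (1.90 CPM).

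*Nog* was a gene of chondrocytes. It was at 87.2 CPM in all chondrocytes (64.1 to 97.1 over 4 libraries) against 14.51 CPM in other cells (12.3 to 23.2), and chondrocytes held 75.6% of its UMIs from 36.04% of all UMIs. Cluster 6 was highest at 105 CPM (66.0 to 123), with clusters 14 (92.6), 10 (87.0) and 2 (86.1) overlapping it and each other. Resting chondrocyte-like cells were the lowest chondrocyte cluster at 67.8 CPM (56.7 to 87.2), still above cluster 12 (52.9 CPM). Cluster 7 was at 46.7 CPM (35.5 to 58.3), above every library of the next cluster, the muscle-like one (18.5 CPM). The *Gdf5*-rich cluster thus also held *Nog*, and whether the same single cells held both was not measured.

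**Figure D2:**
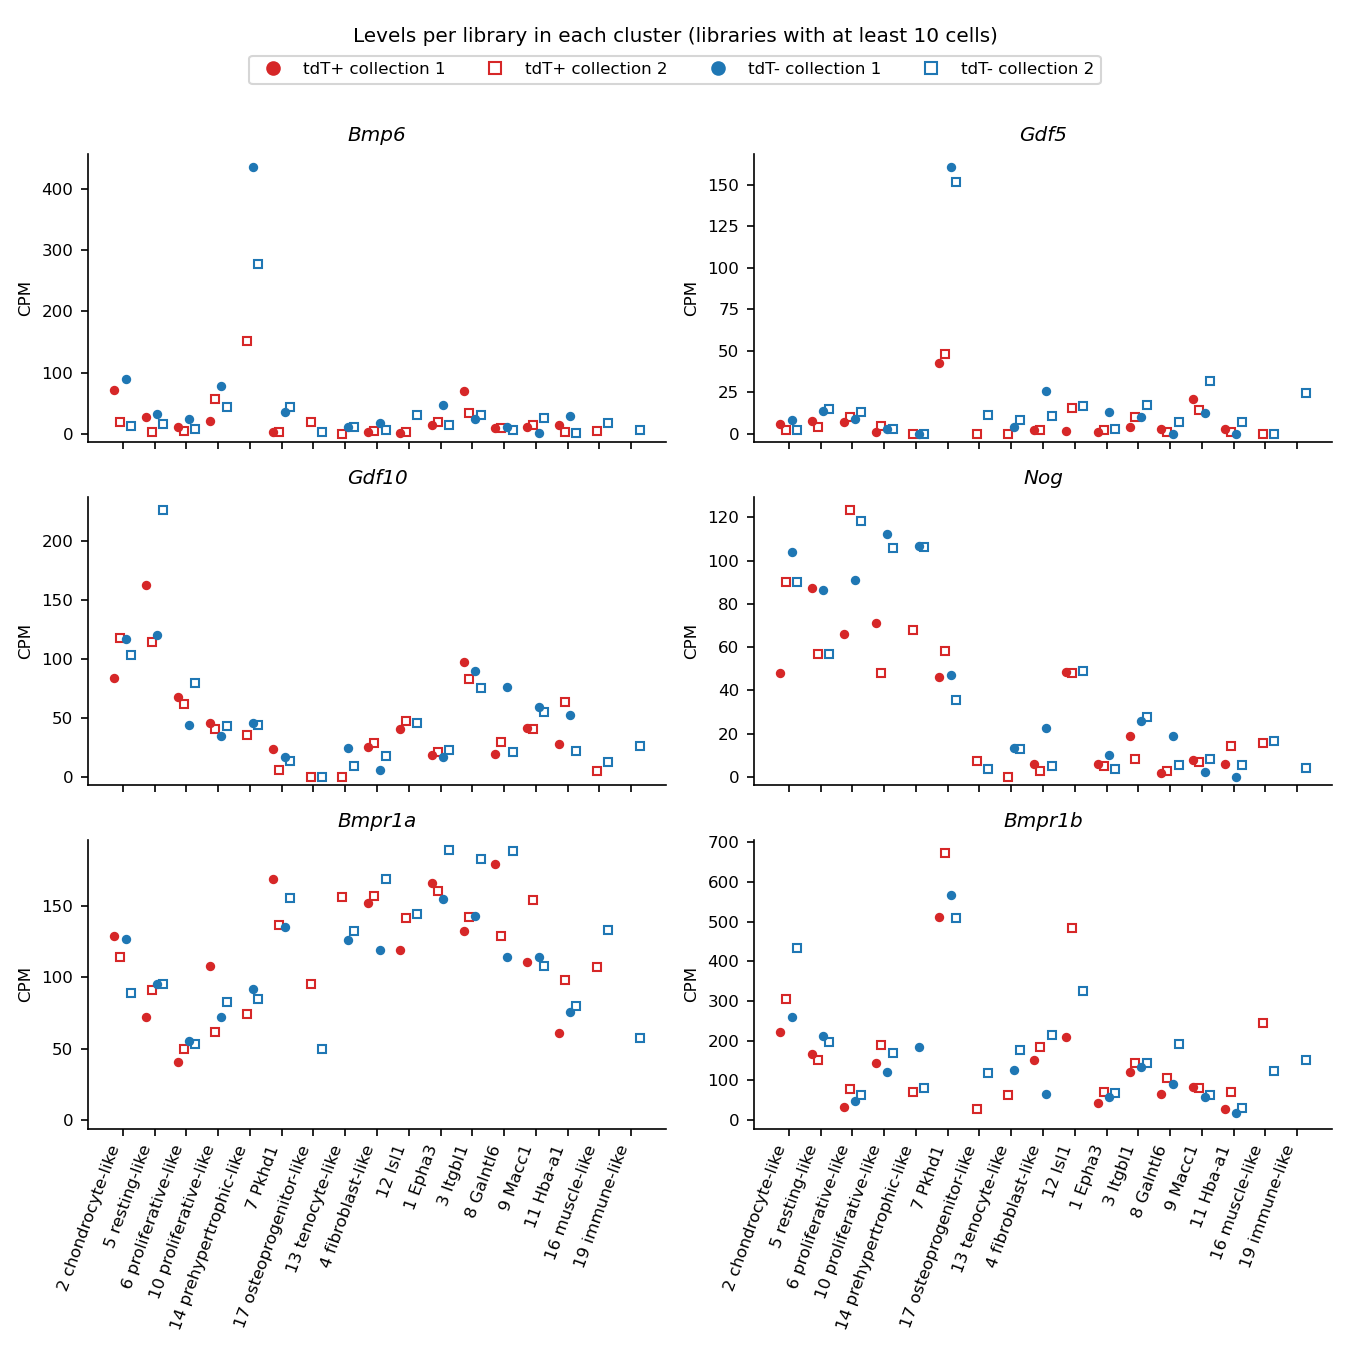
CPM of *Bmp6*, *Gdf5*, *Gdf10*, *Nog*, *Bmpr1a* and *Bmpr1b* in each cluster (horizontal axis), with 1 point per library that had at least 10 cells there. *Bmp6* in cluster 14 (151.7 to 435.9 CPM), *Gdf5* in cluster 7 (42.7 to 161 CPM) and *Bmpr1b* in cluster 7 (509 to 674 CPM) lie above every library of any other cluster.

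The type I receptors were placed differently. *Bmpr1b* was highest in cluster 7 at 575 CPM (509 to 674), above every library of cluster 12 (337 CPM, 210 to 485), and cluster 2 followed at 333 CPM (222 to 432), above cluster 4 (186 CPM, 65.3 to 215). Clusters 6 (58.4 CPM), 17 (50.2 CPM) and 11 (43.8 CPM) were lowest. *Bmpr1b* was thus high in the cluster richest in *Gdf5*.

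*Bmpr1a* varied less, with the highest cluster only 1.29 times the median. Cluster 1 had 166 CPM (155 to 189), fibroblast-like cells 160, cluster 8 152, cluster 3 149 and cluster 7 148 CPM, all overlapping. All 5 chondrocyte clusters lay between 51.0 and 109 CPM, and *Bmpr1a* was at 85.6 CPM in chondrocytes (81.3 to 89.8) against 144 CPM in other cells (124 to 148). Cluster 6, rich in *Nog*, was lowest but for immune-like cells, with all its libraries (40.7 to 55.7 CPM) below those of cluster 14 (74.3 to 91.4).

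*Bmpr2*, the type II receptor, was at 134 CPM in chondrocytes (124 to 144) and 141 CPM in other cells (110 to 150). Cluster 1 was highest at 211 CPM (178 to 255) and cluster 6 lowest at 51.9 CPM (33.7 to 58.1), and each step of its order overlapped. Cluster 6 was thus among the lowest clusters for all 3 receptors. The other proliferative chondrocyte-like cluster, 10, had *Bmpr1a* at 80.85, *Bmpr1b* at 167 and *Bmpr2* at 182 CPM.

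The receptors were then read in the clusters highest for a ligand. Cluster 14, highest for *Bmp6*, had *Bmpr1a* at 79.4 CPM, *Bmpr1b* at 86.7 CPM and *Bmpr2* at 135 CPM, against 122, 176 and 139 CPM over all cells. Cluster 7, highest for *Gdf5*, had them at 148, 575 and 157 CPM. Osteoprogenitor-like cells, highest for *Bmp2* and *Bmp7*, had 84.4, 50.2 and 98.6 CPM, each below the level over all cells. The *Isl1* cluster 12, highest for *Bmp4*, had 137, 337 and 150 CPM. Immune-like cells had *Bmpr1a* at 46.2 CPM, *Bmpr1b* at 118 CPM (74 UMIs in 29 cells) and *Bmpr2* at 76.5 CPM. *Bmpr1b* in cluster 14 and in osteoprogenitor-like cells lay under that immune-like level. So did *Bmpr1b* in clusters 8 (111 CPM), 9 (74.6), 1 (58.9), 6 (58.4) and 11 (43.8). How much of these levels is background was not measured. RNA levels do not show which cells received a signal.

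For each of the 10 genes, the genes with the most similar pattern were those with the highest Pearson r of log2(CPM + 1) over 18 clusters, among 12366 genes. These were all clusters of at least 30 cells. They take in clusters 15 and 18, which are not described here, and leave out the immune-like cluster 19 (29 cells). The clusters share libraries and differ in depth, so r is a description. *Bmp6* was most like *Hspg2* (r = 0.878), *Sptlc2* (0.851) and *9330188P03Rik* (0.840). *Gdf5* was most like *Cdc25c* (0.877), *Cep70* (0.863) and *Stac* (0.828). *Nog* was most like *Klf10* (0.932), *Slc2a1* (0.922) and *Col9a2* (0.916), a cartilage collagen gene. *Bmp2* was most like *Cbr3* (0.840), *Asns* (0.792) and *Sp7* (0.781), and *Bmp7* was most like *Smyd2* (0.814), *Sp7* (0.794) and *Bambi* (0.782), so *Sp7*, an osteoblast transcription factor, was near both. *Bmp4* was most like *Hlx* (0.800), *Kcnj2* (0.757) and *Scrn1* (0.746), and *Gdf10* most like *Rflna* (0.832), *Acot1* (0.831) and *Ppp1r36* (0.823). *Bmpr1a* was most like *Atp7a* (0.964), *Gtdc1* (0.947) and *Phip* (0.940), *Bmpr1b* most like *Tle4* (0.944), *Map2* (0.907) and *Syne2* (0.857), and *Bmpr2* most like *Slk* (0.925), *Atxn7* (0.916) and *Ankrd11* (0.915).

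The comparison of p21 with control cells asks whether the block on cartilage cell division changed these genes shortly after induction. In chondrocytes none of the 10 passed edgeR's quasi-likelihood test at an adjusted p of 0.05, where 69 of 11929 genes tested did (0.578%, with 0.126% higher and 0.453% lower). Values below are TMM-scaled CPM per pseudobulk, and in summed values fewer cells of a type and less RNA per cell cannot be told apart. The fit took the sorted fraction as a covariate.

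*Bmpr1b* came nearest to a uniform direction in chondrocytes. The p21 pseudobulks held 175 and 219 CPM in tdT- and 154 and 216 CPM in tdT+ cells, against 167, 184, 125 and 186 CPM in the control cells of the same libraries. The p21 value was the higher in 4 of 4 libraries but the groups overlapped (191 ± 31.7 against 165 ± 28.1, SD, n = 4), with a log2 fold change of 0.23 (SE 0.14, 95% interval -0.07 to 0.52, adjusted p = 0.618).

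*Nog* was at 83.8, 102, 62.8 and 89.2 CPM in the p21 chondrocytes and at 101, 93.7, 62.3 and 47.05 CPM in the control chondrocytes of the same libraries (tdT- collections 1 and 2, then tdT+ 1 and 2). The values overlapped (84.3 ± 16.2 against 76.1 ± 25.7, SD, n = 4), and the log2 fold change was 0.21 (SE 0.15, interval -0.12 to 0.54, adjusted p = 0.687). *Gdf10* was the most even of the ligands, at 85.2 ± 10.7 against 85.7 ± 4.56 CPM (log2 0.01, SE 0.11, interval -0.24 to 0.26, adjusted p = 0.996).

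*Bmp6* had the widest spread. It was at 63.5, 52.6, 128 and 30.9 CPM in the p21 chondrocytes and at 93.4, 87.7, 24.6 and 43.5 CPM in the controls, in the same order, so it was higher with p21 in 1 of 4 libraries only, tdT+ collection 1. There 2 cells of cluster 14 held 149 of the 223 *Bmp6* UMIs, and without this pseudobulk the estimate was -0.48 (adjusted p = 0.434). The interval ran from -0.79 to 1.14 on the log2 scale (estimate 0.17, SE 0.44, adjusted p = 0.949). The share of cluster 14 was 19.4, 13.9, 4.17 and 6.94% of the p21 and 9.15, 21, 0 and 3.39% of the control chondrocytes, so in tdT- collection 1 the p21 cells had the larger share and the lower *Bmp6* level. Without cluster 14 the estimate was 0.16.

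*Bmp2* was at 35.7 ± 6.20 CPM in p21 and 39.4 ± 6.72 CPM in control chondrocytes (log2 -0.19, SE 0.15, interval -0.51 to 0.13), *Bmp4* at 15.7 ± 3.39 and 13.4 ± 6.13 CPM (0.19, SE 0.28, interval -0.41 to 0.79) and *Bmp7* at 14.6 ± 5.59 and 18.4 ± 6.01 CPM (-0.19, SE 0.27, interval -0.77 to 0.40). *Gdf5* was near the floor, at 6.28 ± 1.34 and 4.27 ± 3.75 CPM (3 to 58 UMIs, log2 0.60, SE 0.44, interval -0.35 to 1.56). *Bmpr1a* (91.4 ± 12.03 and 87.8 ± 3.88 CPM, log2 0.04, interval -0.23 to 0.30) and *Bmpr2* (134 ± 29.9 and 133 ± 45.6 CPM, log2 0.04, interval -0.43 to 0.51) had means that lay closer together than the spread within a group. Over the 10 genes the median log2 fold change was 0.10, with 8 above 0, against -0.00 over all genes tested, with 5959 of 11929 above 0. The 10 genes of the dissociation stress list, which digestion can raise, summed to 5880 to 7760 CPM in p21 and 7480 to 10100 CPM in control chondrocytes, and the 5 epidermis markers to 2.48 to 6.24 against 7.91 to 13.2 CPM, with *Krt14* at 0. Their part in the values was not tested.

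**Figure D3:**
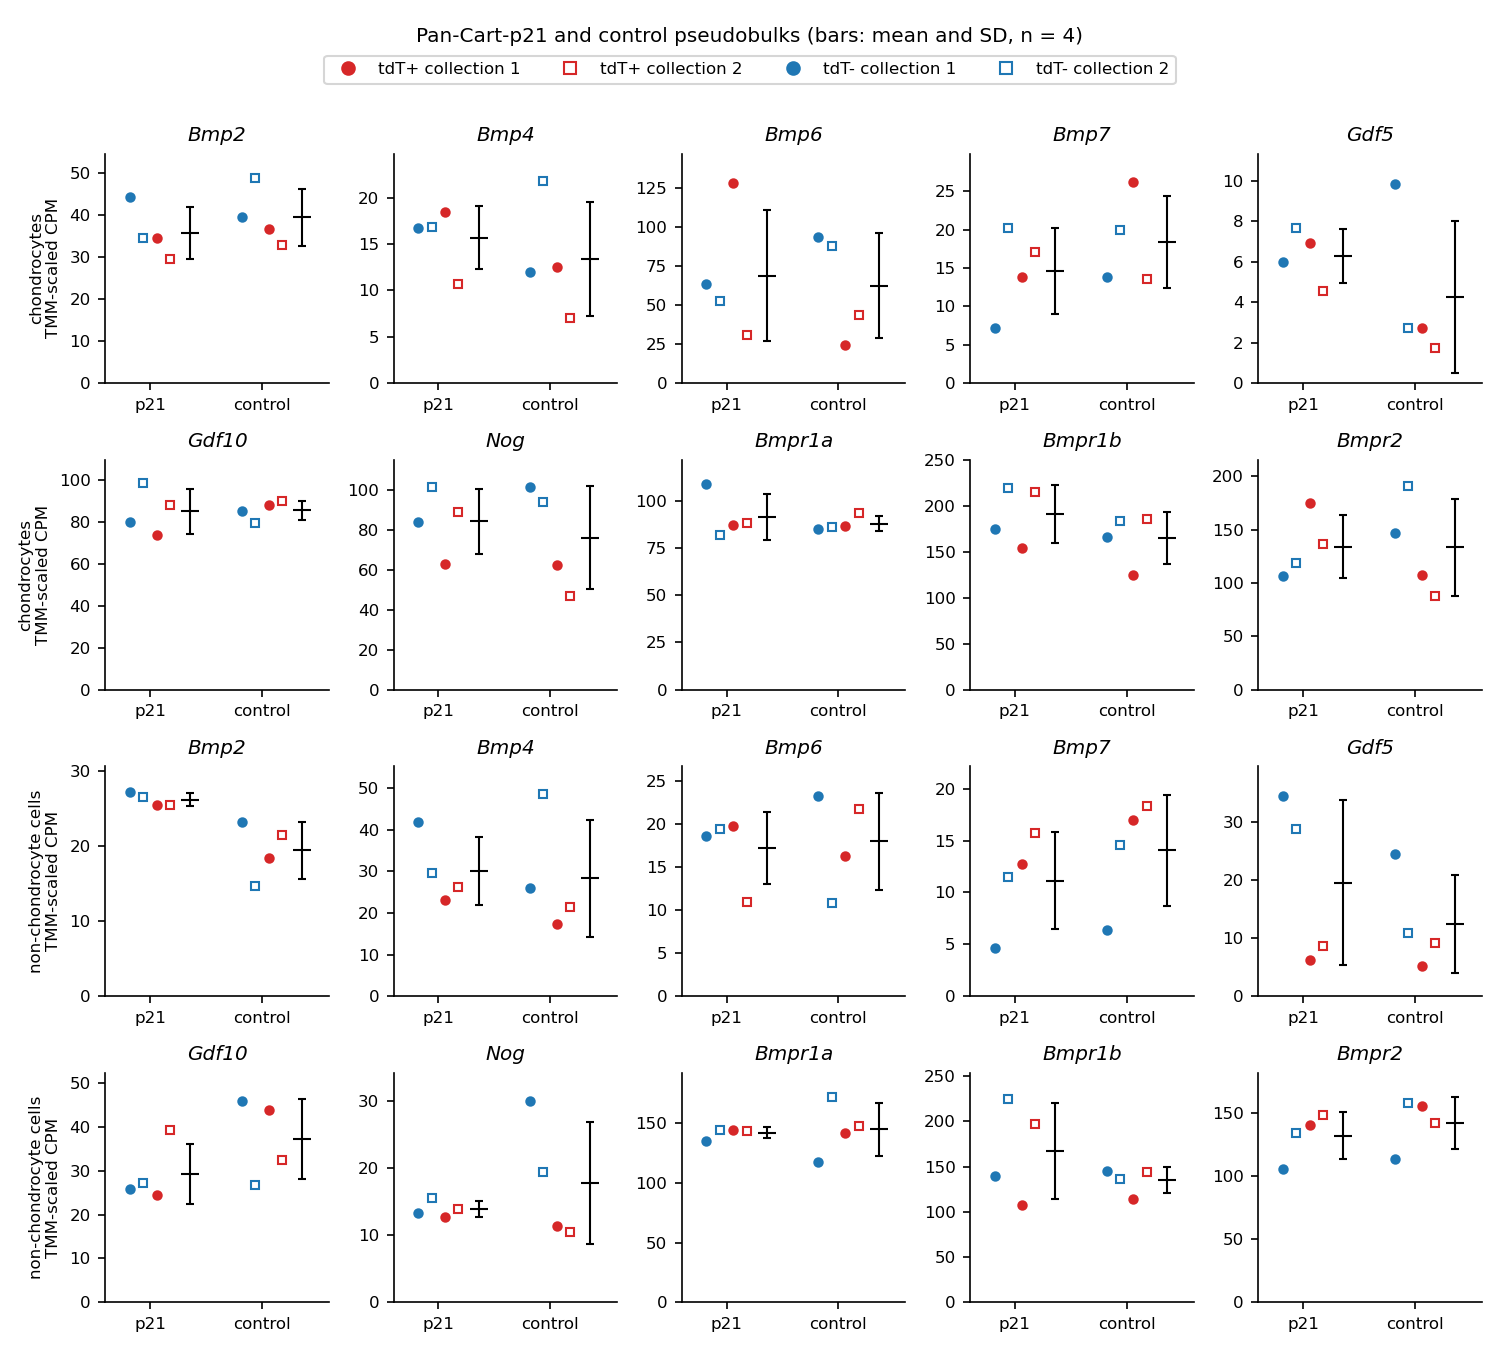
TMM-scaled CPM of the 10 genes in the 8 pseudobulks of chondrocytes (upper panels) and of non-chondrocyte cells (lower panels), split into p21 and control. Colour marks the sorted fraction, the symbol marks the collection, and bars show the mean and SD of 4 pseudobulks. The groups overlap in every panel except *Bmp2* in non-chondrocyte cells, where p21 cells sit between 25.5 and 27.2 CPM and control cells between 14.6 and 23.2 CPM. *Bmp2* did not pass edgeR's test there, and the share of all genes tested whose groups did not overlap was not counted.

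In non-chondrocyte cells none of the 10 genes passed the test either (1 of 14065 genes did, 0.00711%). Here and below, the share of all genes tested whose groups did not overlap was not counted. Among the 10, *Bmp2* was the gene whose groups did not overlap. It was at 27.2, 26.5, 25.5 and 25.5 CPM in p21 cells and at 23.2, 14.6, 18.4 and 21.5 CPM in control cells of tdT- collections 1 and 2 and tdT+ collections 1 and 2. It was higher with p21 in 4 of 4 libraries, by 0.42 on the log2 scale (SE 0.14, interval 0.10 to 0.74), but edgeR's adjusted p was 0.812. The osteoprogenitor-like cluster, highest for *Bmp2*, made up 0, 1.15, 2.58 and 4.37% of all p21 cells, in the same order of libraries. Among all control cells its shares were 0, 0.47, 0.43 and 1.42%. The part of these shares in the *Bmp2* difference was not tested. *Bmp7* was lower with p21 in 4 of 4 libraries (11.1 ± 4.69 against 14.1 ± 5.36 CPM, log2 -0.26, SE 0.24, adjusted p = 1.000), with overlap. For the other 8 genes the estimates lay between -0.32 (*Gdf10*) and 0.47 (*Gdf5*), and the groups overlapped.

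Over all cells summed, 0 of the 10 genes passed (4 of 14880 genes did, 0.0269%, with 0.00672% higher and 0.0202% lower), with estimates from -0.29 (*Bmp7*, lower in 4 of 4 libraries) to 0.55 (*Gdf5*, interval -0.08 to 1.19). These sums also held the 161 cells of the 5 clusters not described, all of them called p21. The largest, cluster 15 (median 3157 UMIs per cell), made up 11.6% of the p21 cells of tdT+ collection 2. The part of these cells in the all-cell values was not tested. In resting chondrocyte-like cells, with 13 to 60 cells per pseudobulk, 7 of the 10 genes had enough counts to be tested and none passed (3 of 6633 genes did, 0.0452%, with 0.0151% higher and 0.0302% lower). *Bmp2* did not overlap there, at 3.17, 18.3, 27.8 and 18.5 CPM in p21 against 28.35, 28.7, 38.0 and 47.0 CPM in control cells. It was lower with p21 in 4 of 4 libraries, by a log2 difference of -1.03 (SE 0.34, interval -1.75 to -0.31, edgeR's adjusted p = 0.441), from 1 to 22 UMIs per pseudobulk. In these cells the proliferative chondrocyte markers summed to 1390 to 1680 CPM with p21 and 1740 to 2220 CPM without, and their part in this was not tested. *Bmp6* had a larger estimate there, -1.51 (SE 0.64, interval -2.88 to -0.15, edgeR's adjusted p = 0.667), and was lower with p21 in 3 of 4 libraries. It was at 41.2, 6.96, 8.34 and 2.46 CPM in p21 and at 29.8, 43.0, 47.4 and 6.41 CPM in control cells, with overlap, from 2 to 20 UMIs. *Bmp2* thus stood higher with p21 in non-chondrocyte cells and lower in resting chondrocyte-like cells, with neither difference past the threshold and the contrast between them not tested. *Gdf10*, highest in resting chondrocyte-like cells, was level there at 150.5 ± 60.4 and 155 ± 63.4 CPM (log2 0.01, interval -0.56 to 0.59).

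The comparison of tdT+ with tdT- cells asks how the *Gli1* lineage differs from the rest of the limb. *Gdf5* was the gene among the 10 that passed the test. In non-chondrocyte cells it was at 5.23 and 6.20 CPM (control and p21 of collection 1) and 9.17 and 8.59 CPM (collection 2) in the tdT+ pseudobulks, against 24.55 and 34.5 CPM and 10.8 and 28.8 CPM in the tdT- pseudobulks. Every tdT+ value lay below every tdT- value (7.30 ± 1.89 against 24.7 ± 10.1 CPM, SD, n = 4), within both collections. The log2 fold change was -1.70 (SE 0.28, interval -2.33 to -1.08), with an adjusted p of 0.0194 by edgeR's test, where 1.27% of 14065 genes passed, 0.512% higher and 0.761% lower. The call held with the collection (adjusted p = 0.0322) or the embryo pool (0.0174) as a block.

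Inside cluster 7 *Gdf5* was lower in both tdT+ libraries. Cluster 7 made up 16.1 and 10.4% of the tdT- and 6.07 and 8.19% of the tdT+ non-chondrocyte cells. The level there was 161 and 151 CPM in tdT- and 42.7 and 47.9 CPM in tdT+ libraries. In the other non-chondrocyte cells it was 9.56 and 11.5 CPM in tdT- against 3.85 and 5.26 CPM in tdT+ libraries. All were under the 19.1 CPM of immune-like cells, and how much of them is background was not measured. Without cluster 7 the log2 fold change was -1.12 and the adjusted p 0.0820, so the call was lost. The 7 interzone markers summed to 280 to 388 CPM in tdT+ and 432 to 588 CPM in tdT- pseudobulks, with *Vit* at 0 in some tdT- pseudobulks, the stress list to 2540 to 2730 against 3000 to 3930 CPM and the 6 erythroid markers to 3.40 to 5.67 against 17.5 to 86.0 CPM. Their part in this was not tested. The call also ended when any of 4 pseudobulks was left out, with an adjusted p of 0.0872 without the p21 cells of tdT- collection 2, 0.0765 and 0.0691 without the p21 and the control cells of tdT+ collection 1, and 0.0616 without the p21 cells of tdT+ collection 2.

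**Figure D4:**
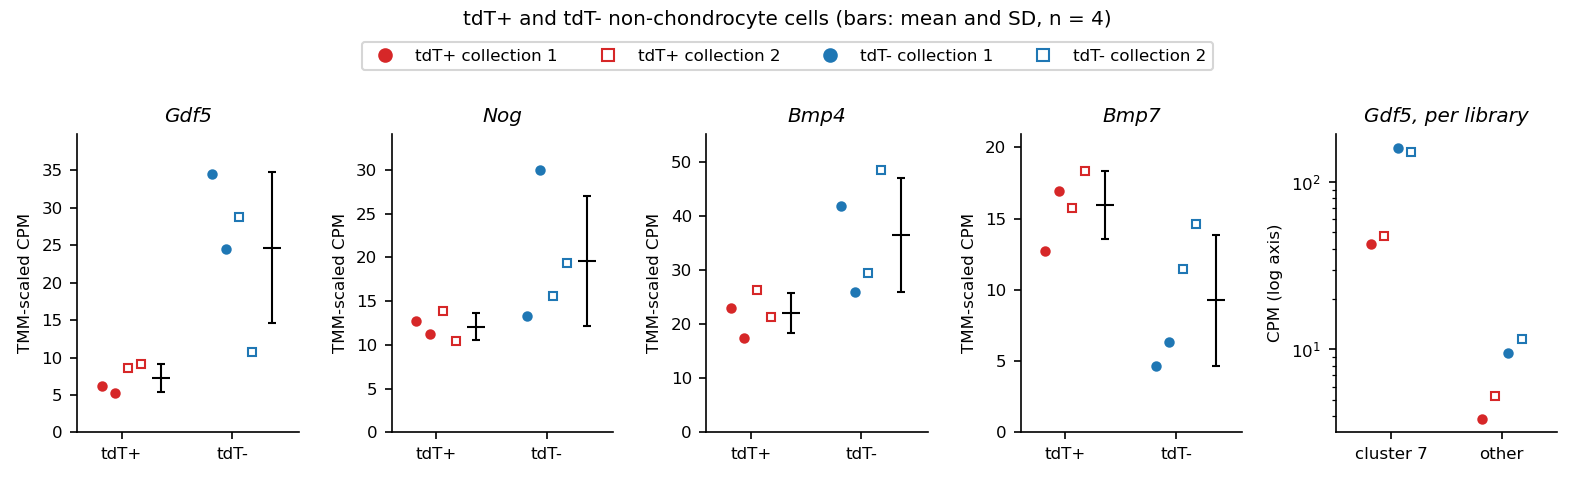
TMM-scaled CPM of *Gdf5*, *Nog*, *Bmp4* and *Bmp7* in tdT+ and tdT- pseudobulks of non-chondrocyte cells, with mean and SD of 4, and, on a log axis, CPM of *Gdf5* per library inside cluster 7 and in the other non-chondrocyte cells. The 4 tdT+ pseudobulks of *Gdf5* (5.23 to 9.17 CPM) lie below the 4 tdT- pseudobulks (10.8 to 34.5 CPM), and inside cluster 7 the tdT+ libraries (42.7 and 47.9 CPM) lie below the tdT- libraries (161 and 151 CPM). Outside it all libraries are at 3.85 to 11.5 CPM, under the level of immune-like cells.

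Another 3 genes moved 1 way in every embryo pool in non-chondrocyte cells without passing the test. How many of all genes tested moved 1 way in every pool was not counted. *Bmp4* was lower in tdT+ cells (22.0 ± 3.71 against 36.5 ± 10.6 CPM, log2 -0.71, SE 0.20, adjusted p = 0.131), and so was *Nog* (12.1 ± 1.55 against 19.6 ± 7.41 CPM, log2 -0.66, SE 0.22, adjusted p = 0.242). *Bmp7* was higher (15.9 ± 2.39 against 9.27 ± 4.59 CPM, log2 0.62, SE 0.24, adjusted p = 0.327). The 7 osteoprogenitor markers, whose cluster was highest for *Bmp7*, summed to 683 to 729 CPM in tdT+ and 301 to 380 CPM in tdT- cells. The 9 general chondrocyte markers, of the cells highest for *Nog*, summed to 3180 to 3580 CPM in tdT+ and 3690 to 4650 CPM in tdT- cells. The part of either list in these values was not tested.

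In chondrocytes 0 of the 10 genes passed (2 of 11929 genes did, 0.0168%, with 0.00838% higher and 0.00838% lower). *Nog* was at 62.3, 62.8, 47.05 and 89.2 CPM in tdT+ and at 101, 83.8, 93.7 and 102 CPM in tdT- chondrocytes. It was lower in tdT+ cells of all 4 pools, by a log2 difference of -0.54 (SE 0.15, interval -0.87 to -0.20, adjusted p = 0.932), and 1 tdT+ value reached into the tdT- range. *Bmp2* was lower in 4 of 4 pools as well (33.4 ± 3.02 against 41.7 ± 6.12 CPM, log2 -0.28, SE 0.15, adjusted p = 1.000). The 5 hypertrophic chondrocyte markers summed to 9.35 to 27.7 CPM in tdT+ and 91.9 to 488 CPM in tdT- chondrocytes, and cluster 14 made up 1.69 and 6.03% against 11.2 and 15.8% of them. *Bmp6*, highest in that cluster, was at 56.9 ± 48.3 CPM in tdT+ and 74.3 ± 19.4 CPM in tdT- chondrocytes (log2 -0.46, SE 0.44, adjusted p = 1.000).

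Over all cells 1 of the 10 genes passed, where 2.16% of 14880 genes did, 1.14% higher and 1.01% lower. *Gdf5* was at 6.33 ± 1.30 CPM in tdT+ and 16.8 ± 7.45 CPM in tdT- pseudobulks, lower in 3 of 4 pools with overlap (log2 -1.34, SE 0.29, interval -1.98 to -0.71, adjusted p = 0.0427). This call was lost with the collection (adjusted p = 0.0605) or the embryo pool (0.0581) as a block, and in 7 of 8 fits that left out a pseudobulk (adjusted p = 0.0512 to 0.143), holding only without the control cells of tdT- collection 2 (0.0102). *Nog* was at 25.2, 25.0, 18.6 and 41.1 CPM in tdT+ against 70.9, 38.4, 57.3 and 51.8 CPM in tdT- pseudobulks, lower in 4 of 4 pools (log2 -1.01, SE 0.23, interval -1.53 to -0.49), with an adjusted p of 0.0562 that fell to 0.0391 with the embryo pool as a block. *Bmp2* did not overlap (25.3 ± 2.09 against 32.1 ± 1.38 CPM, log2 -0.35, SE 0.09, adjusted p = 0.0816). Chondrocytes, which held most *Nog*, made up 49.7 and 38.8% of the tdT- and 25.4 and 24.5% of the tdT+ cells, and the 9 general chondrocyte markers summed to 8880 to 12000 against 6310 to 8270 CPM.

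The interaction of condition and fraction tests whether the p21 difference was unlike in tdT+ and tdT- cells. No gene passed it in chondrocytes (0 of 12450 by edgeR, 0%, with 320 at an unadjusted p under 0.05 and 0 by DESeq2 and limma-voom) or in non-chondrocyte cells (0 of 14546 by edgeR, 0%, with 315 at an unadjusted p under 0.05, 1 by DESeq2 and 0 by limma-voom). In chondrocytes *Bmpr2* ranked 4 of 12450 genes. With p21 it was the higher in tdT+ cells, at 175 and 137 CPM against 108 and 87.6 CPM in controls, and the lower in tdT- cells, at 107 and 119 CPM against 147 and 191 CPM. The interaction was 1.22 on the log2 scale (SE 0.27, interval 0.64 to 1.81, adjusted p = 1.000). *Bmp6* had an interaction of 1.82 (SE 0.73, interval 0.21 to 3.42, adjusted p = 1.000) that became 0.04 without cluster 14. In non-chondrocyte cells *Nog* had the lowest p of the 10, with an interaction of 1.01 (SE 0.34, interval 0.26 to 1.76, adjusted p = 1.000).

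**Figure D5:**
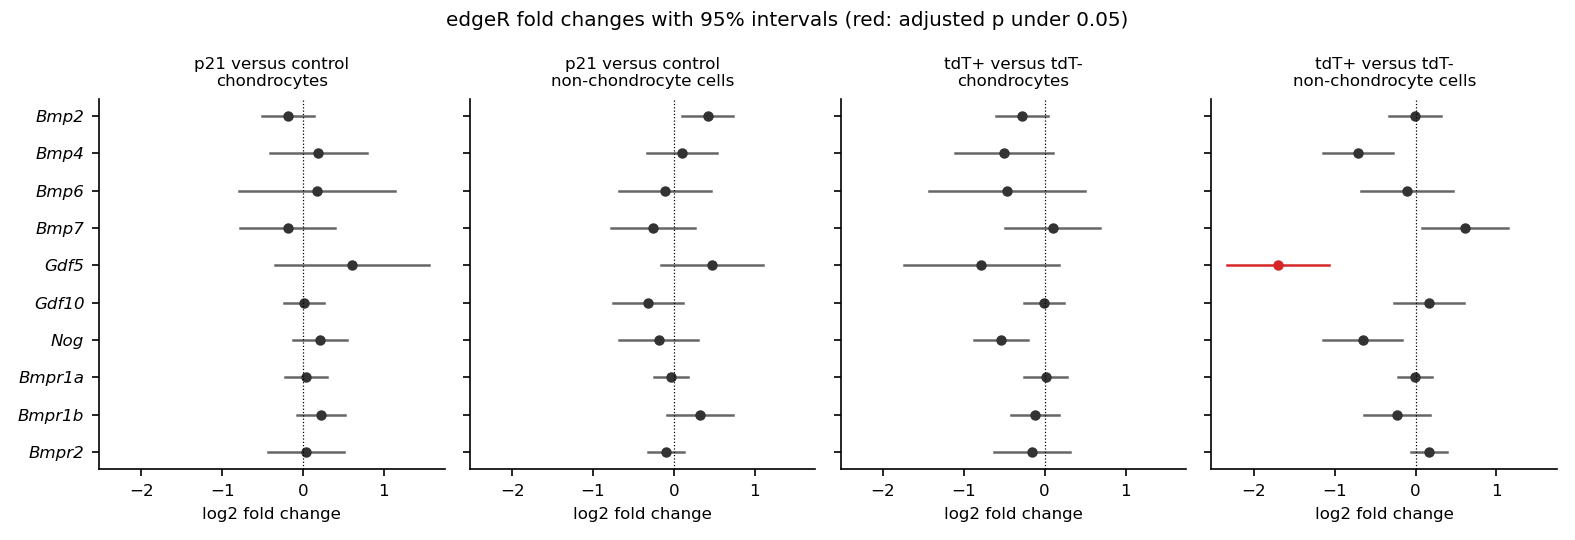
Log2 fold changes of the 10 genes with 95% intervals from edgeR's fit, for p21 against control and for tdT+ against tdT- cells. Red marks an adjusted p under 0.05 and the dashed line marks 0. The estimate past the threshold is that of *Gdf5* between fractions in non-chondrocyte cells (-1.70).

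The other genes of the pathway were taken from a list of 51 (9 other ligands, 19 other antagonists and modulators, 8 other receptors and co-receptors, 6 signal transducers and 9 targets). Between p21 and control chondrocytes 42 were tested, 1 was higher and 0 were lower, where 0.126% of 11929 genes were higher and 0.453% lower. This was *Hey1*, listed as a target and known also as a Notch target, which was at 107 ± 6.52 CPM in p21 and 64.0 ± 5.74 CPM in control chondrocytes (SD, n = 4), higher in 4 of 4 libraries without overlap (log2 0.75, SE 0.10, interval 0.52 to 0.97, adjusted p = 0.0158). Its adjusted p was 0.0430 with the library as a block, 0.162 with the fractions of a pool summed, and 0.0667 and 0.0662 without the p21 cells of tdT- and of tdT+ collection 2. The 9 targets had a median log2 fold change of 0.40, with 8 above 0 (5959 of 11929 over all genes tested), and the 8 other than *Hey1* did not pass the test. *Id1*, the best known target, was at 598 ± 78.7 against 589 ± 112 CPM. Of the pathway list 0 of 45 passed between p21 and control non-chondrocyte cells, 0 of 46 over all cells and 0 of 25 in resting chondrocyte-like cells.

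Between the fractions 0 of 42 pathway genes passed in chondrocytes, where 0.0168% of 11929 genes did. In non-chondrocyte cells 45 were tested, and *Nbl1* and *Dlx5* passed, where 1.27% of 14065 genes did, 0.512% higher and 0.761% lower. *Nbl1*, an extracellular BMP antagonist, was lower in tdT+ cells (18.7 ± 4.07 against 33.8 ± 4.21 CPM, log2 -0.89, SE 0.16, adjusted p = 0.0278). *Dlx5*, a homeobox gene of osteoblasts listed as a target, was higher (62.9 ± 13.8 against 32.2 ± 8.87 CPM, log2 1.02, SE 0.21, adjusted p = 0.0463). Both moved 1 way in 4 of 4 pools without overlap, but the *Nbl1* call was lost in 4 and the *Dlx5* call in 6 of 8 fits that left out a pseudobulk, both of them without the p21 cells of tdT- collection 2 (adjusted p = 0.129 and 0.155) and without either condition of tdT+ collection 1 (0.0936 and 0.0794 for *Nbl1*, 0.156 and 0.108 for *Dlx5*). Both were also lost with 4 sex-gene UMIs (0.0619 and 0.0605), and *Dlx5* was lost in 4 more settings, at Leiden resolutions of 0.5 and 1.5, without cells carrying markers of other types and without cluster 7 (0.0546 to 0.0949). Over all cells *Sostdc1*, another antagonist, was higher in tdT+ cells (25.9 ± 4.36 against 13.4 ± 2.22 CPM, log2 0.95, SE 0.17, adjusted p = 0.0233), as 1 of 46 tested. There 2.16% of 14880 genes passed, 1.14% higher and 1.01% lower. The *Sostdc1* call was lost in 5 of 8 fits that left out a pseudobulk, with the conditions of a library summed (0.0662) and with cells lacking a sex call included (0.0628). The interactions called 0 of 44 and 0 of 45 pathway genes.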

How the data were processed

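Single-cell suspensions were sequenced with 10x Genomics 3′ v3.1 chemistry in 4 libraries. The authors aligned reads with Cell Ranger 7.2.0 to GRCm38 (mm10 in the submitters' notes) with transgenes added and deposited raw UMI counts for each library, not normalized. Their methods also name CellBender for ambient RNA, and whether the deposited counts had passed it is not given in the sources used here. Doublets were treated anew.

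Barcodes with under 1000 UMIs, under 500 genes or over 10% mitochondrial counts were left out. Sex was called from 2 or more UMIs of *Xist* and Y genes with 80% on 1 side, mixed cells were dropped, and the top 5% of Scrublet scores (from 3000 UMIs) per library were removed. Cells were clustered with scanpy 1.11.5 and leidenalg 0.10.2 (2000 variable genes, 30 components, 15 neighbours, resolution 1), leaving out 396 cell-cycle genes and the genes described here. To be named, a cluster had to reach a marker score of 0.5 with 3 raised markers (1.5 times the other cells, detected in at least 10% of cells). Another 161 cells, all called p21, fell in 5 clusters with at least 90% of cells from 1 library. They count only among all cells and, for clusters 15 and 18, in the correlations over 18 clusters.

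UMIs were summed per library and condition and tested in R 4.3.3 with edgeR 4.0.16 (filterByExpr, TMM, glmQLFit, glmQLFTest, Benjamini-Hochberg adjusted p of 0.05, two-sided), with limma 3.58.1 (voom) and DESeq2 1.42.0 as alternatives. The scripts were tested on simulated counts. Named are the 10 genes, the transgene checks, pathway genes with an adjusted p under 0.05 (at most 5 per direction) and 3 like genes each (from 10 CPM, clusters of at least 30 cells). *Prg4*, *Id1* and other cluster leaders were named after values were seen. The 10 genes and the lists were chosen with earlier results of these data known. Fits without cluster 7 or 14, without cells carrying markers of other types (206 cells), and with the embryo pool as a block were added after seeing the data.

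Libraries pair p21 with control cells (1 reaction) and pools pair tdT+ with tdT- cells (same embryos). Deviations from group means correlated at r = -0.056 to 0.286 within libraries and 0.074 to 0.381 within pools. Depth varied between pseudobulks. Intervals of fold changes cover the spread between pseudobulks, and the limits given for a count of 0 cover counting error only.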

Additional observations from a re-analysis of the deposited data

Results flagged for a closer look

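Within groups of 4 pseudobulks, 10 of 120 sets of values had 1 pseudobulk whose gap to the nearest of the others exceeded Dixon's 95% critical share of the group's range, and chance gives this in about 1 in 20 groups. All values are TMM-scaled CPM, and no explanation was tested.

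In chondrocytes *Gdf5* was at 9.85 CPM in the control cells of tdT- collection 1, whereas the other 3 control pseudobulks lay between 1.76 and 2.73 CPM. *Gdf10* was at 73.7 CPM in the p21 cells of tdT+ collection 1, below the other tdT+ pseudobulks (88.0 to 90.0 CPM). *Bmpr1a* was at 93.5 CPM in the control cells of tdT+ collection 2, above the other controls (85.0 to 86.4 CPM). It was also at 109 CPM in the p21 cells of tdT- collection 1, above the other tdT- pseudobulks (81.7 to 86.1 CPM).

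In non-chondrocyte cells *Bmp6* was at 10.9 CPM in the p21 cells of tdT+ collection 2, below the other p21 pseudobulks (18.6 to 19.8 CPM). *Gdf10* was at 45.9 CPM in the control cells of tdT- collection 1, against 25.9 to 27.2 CPM in the other tdT- pseudobulks. *Bmpr1a* was at 135 CPM in the p21 cells of tdT- collection 1, against 143 to 144 CPM in the other p21 pseudobulks. *Bmpr1b* was at 225 CPM in the p21 cells of tdT- collection 2, against 137 to 145 CPM in the other tdT- pseudobulks.

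Over all cells *Bmp4* was at 34.7 CPM in the control cells of tdT- collection 2, against 15.9 to 18.6 CPM in the other controls, and *Bmpr1b* was at 222 CPM in the p21 cells of tdT- collection 2, against 152 to 160 CPM in the other tdT- pseudobulks.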

How the results depend on the processing

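Of 197 counts of the 10 genes past the threshold under another setting, 175 stayed the same and 22 moved, and of 1995 values of single genes 42 lost and 21 gained a call, with 0 reversed calls (146 of 1935 estimates changed sign). Without the filter on low counts, 1 of the 10 genes passed between p21 and control non-chondrocyte cells (*Bmpr1b*), 1 between fractions of chondrocytes (*Nog*), 4 between fractions of non-chondrocyte cells, 4 over all cells and 2 in the chondrocyte interaction (*Bmp6* and *Bmpr2*), where over all genes 276 of 25053, 181 of 24114, 1073 of 25053, 1700 of 26094 and 29 of 24114 passed. With DESeq2 2 passed between fractions of non-chondrocyte cells (*Gdf5* and *Bmp4*, adjusted p = 0.0446) and 2 over all cells. Over all cells 2 also passed with limma-voom, with the conditions of a library summed, without cells carrying markers of other types and with cells lacking a sex call, *Nog* being the second at an adjusted p of 0.0269 to 0.0493, whereas 0 passed with the collection as a block and with 4 sex-gene UMIs. The main fit called 321 of 14880 genes there. How many of all genes passed under these settings is not given here, so the second call has no background beside it. Without cluster 7 0 passed between fractions of non-chondrocyte cells. Leaving out each pseudobulk gave 0 to 1 genes past the threshold between fractions of non-chondrocyte cells and over all cells, and 0 in every other test. Leaving out each library kept the leading cluster of 9 to 10 genes (*Bmpr1a* led in cluster 8 without tdT+ collection 2). As a mean of per-cell CPM, *Nog* led in cluster 2 in place of 6.

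Counts over all genes depended more on the setting. With the library as a replicate block 43 genes passed in place of 69 between p21 and control chondrocytes, 0 in place of 4 over all cells and 8 in place of 3 in resting chondrocyte-like cells. With the fractions of a pool summed 13 passed in chondrocytes, with DESeq2 142, without the filter 471, with 4 sex-gene UMIs 29, at a Leiden resolution of 0.5 28, and without 1 pseudobulk 7 to 55. Between fractions of non-chondrocyte cells 179 became 316 with DESeq2, 311 with the embryo pool as a block and 1073 without the filter, and over all cells 321 became 658, 439 and 1700. The cause of these differences was not tested. The block changed no call of the 10 genes other than those of *Gdf5* and *Nog* over all cells. Pseudobulks of 13 to 60 resting cells left 3 of the 10 genes untested, and between p21 and control chondrocytes the intervals of *Bmp6* and *Gdf5* held both 0 and 1 on the log2 scale.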

Other observations

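The share of each gene's UMIs that a cell type supplied depended on its size as well as its level. Cluster 2, with 10.9% of all UMIs, supplied 20.6% of *Bmpr1b*, 22.6% of *Nog* and 22.3% of *Gdf10* UMIs, and resting chondrocyte-like cells supplied another 19.8% of *Gdf10* from 6.45% of all UMIs. The *Runx2*-bearing cluster 1 supplied 18.8% of *Bmpr2* and 16.8% of *Bmpr1a* UMIs from 12.4% of the total. Cluster 7 supplied 16.4% of *Bmpr1b* from 5.03%, and cluster 12 14.3% of *Bmp4* from 4.12%. Chondrocytes held 65.9% of *Bmp6*, 60.1% of *Gdf10* and 18.1% of *Gdf5* UMIs.

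Over 18 clusters, as a description, *Bmpr1a* and *Bmpr2* had a Pearson r of 0.591 (log2(CPM + 1)), *Bmp2* and *Bmp7* of 0.583, *Bmp6* and *Nog* of 0.549, and *Bmp2* and *Bmpr1a* of -0.523. The clusters share 4 libraries and differ in depth, and they take in clusters 15 and 18, which are not described here.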
